A study of Mus musculus with 6 samples.

Results

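The 10 genes described here are those a myofibroblast is recognised by and those that the coactivator YAP switches on: Acta2, Tagln, Cnn1, Myl9, Ctgf, Cyr61, Ankrd1, Postn, Cdh11 and Fap. They were looked up by symbol in the deposited table of bulk RNA sequencing, where all 10 of 10 were found among 14016 rows, Ctgf and Cyr61 under these older names (now Ccn2 and Ccn1). The tissue was injured muscle taken 7 days after volumetric muscle loss, a surgical removal of muscle, with no implant placed in any mouse. Per the study's methods, the gap in control injuries was filled with sterile saline. There were 3 WT mice, for which the study's methods describe female C57BL/6 animals, and 3 mice labelled GATA-1 mutant, the ΔdblGATA strain, which lacks eosinophils because a GATA-binding site of the Gata1 gene is deleted in every cell of the animal. The design asks how muscle repair proceeds without eosinophils. The values used are, for each gene, the authors' mean of the log2 CPM (reads of a gene scaled to a common library size) over the mice of both genotypes together. Values per mouse were not analysed here, so no SD, no depth per sample and no test can stand beside a level, and a gene that differed between the genotypes would be shown only by its average. In bulk tissue, fewer cells of a type and less RNA per cell cannot be told apart.

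A myofibroblast is a fibroblast that has taken on contractile filaments of the smooth muscle kind. It forms during wound repair, pulls on the matrix and secretes more of it. YAP and its partner TAZ enter the nucleus when a cell is stretched or spread on a stiff matrix, bind TEAD proteins on DNA and raise genes such as Ctgf, Cyr61 and Ankrd1, and the kinases of the Hippo pathway hold them in the cytoplasm. Smooth muscle filament genes are driven chiefly by the factor SRF, which binds a DNA element known as the CArG box, with myocardin or the myocardin-related factors. Smooth muscle cells and pericytes of blood vessels (mural cells) and, for some genes, muscle fibres also make the same transcripts, so that none of these 10 genes belongs to the myofibroblast alone.

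The promoter sequences are shown because they hold the DNA words by which YAP-TEAD and SRF targets are known. RefSeq (GRCm38.p6) windows from 250 bases before to 50 bases after a transcription start were at hand for 6 of the 10 members, with 2 starts for Postn. Ctgf, Tagln, Fap and Cdh11 had no window and were not searched. The core of the TEAD site, CATTCC on either strand, was found in the windows of 3 members, Acta2, Cyr61 and Ankrd1. Of all 27025 genes with windows, 16.6% held it, and of all 32851 windows, 14.7% did. The strict form of the CArG box is CC, 6 bases that are A or T, and GG, with no mismatch allowed. On either strand, it was found in the window of 1 member, Myl9. The share was 1.81% of all genes and 1.63% of all windows. Near matches were not searched for in any window, so their number is not known. Those seen in the printed bases include ccctatatgg and ccttgtttgg in Acta2 and ccttgtaagg in Myl9. Each is 1 base off the strict form and stays in lower case below. No match of one motif overlapped a match of the other. The bases before the start are printed for these 4 genes, 5′ to 3′ along the gene, with matches to the TEAD core or the CArG box in capitals (GGAATG is the TEAD core read from the opposite strand).
Acta2 (chr19:34255374-34255623, minus strand): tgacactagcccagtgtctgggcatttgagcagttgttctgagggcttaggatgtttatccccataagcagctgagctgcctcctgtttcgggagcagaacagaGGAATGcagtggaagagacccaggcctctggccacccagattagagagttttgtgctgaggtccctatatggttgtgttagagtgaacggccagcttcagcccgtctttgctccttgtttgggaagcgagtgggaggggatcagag
Cyr61 (chr3:145649986-145650235, minus strand): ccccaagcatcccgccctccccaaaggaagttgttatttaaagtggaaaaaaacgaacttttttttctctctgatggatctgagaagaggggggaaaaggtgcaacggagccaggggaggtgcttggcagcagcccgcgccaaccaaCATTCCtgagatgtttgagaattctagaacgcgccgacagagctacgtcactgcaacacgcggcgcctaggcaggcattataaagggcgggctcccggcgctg
Ankrd1 (chr19:36119845-36120094, minus strand): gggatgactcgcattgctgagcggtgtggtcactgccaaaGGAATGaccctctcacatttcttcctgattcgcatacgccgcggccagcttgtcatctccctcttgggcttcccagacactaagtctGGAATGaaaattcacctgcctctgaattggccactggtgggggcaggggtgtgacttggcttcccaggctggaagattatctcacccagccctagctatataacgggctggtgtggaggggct
Myl9 (chr2:156775214-156775463, plus strand): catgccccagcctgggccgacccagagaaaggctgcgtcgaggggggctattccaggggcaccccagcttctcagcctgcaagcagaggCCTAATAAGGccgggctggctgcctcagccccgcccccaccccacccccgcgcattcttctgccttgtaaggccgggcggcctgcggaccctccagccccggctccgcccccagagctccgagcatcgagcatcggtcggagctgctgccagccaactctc

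Counted from the RefSeq start site, where -1 is the last base before it, the TEAD core lay at -146 to -141 in Acta2 and at -103 to -98 in Cyr61. Ankrd1 held it at -210 to -205 and again at -123 to -118. The CArG box of Myl9 lay at -161 to -152. The windows of Cnn1 and of both starts of Postn held neither word. The plain TATA word TATAAA, which 13.6% of all windows hold, stood at -25 to -20 in Cyr61 and at -26 to -21 before the second start of Postn. A match of letters is no measurement of binding, and these windows are short. The RefSeq starts also differ from the gene positions given below, which come from another annotation (GENCODE). All printed bases of Ankrd1, most of those of Acta2 and the last of those of Myl9 lie inside those gene positions. Among the 6 members with a window, those with a TEAD core ran from Acta2, below only Postn in level per length, to Ankrd1, above only Cnn1. A link between these words and the levels was not tested.

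**Figure D1:**
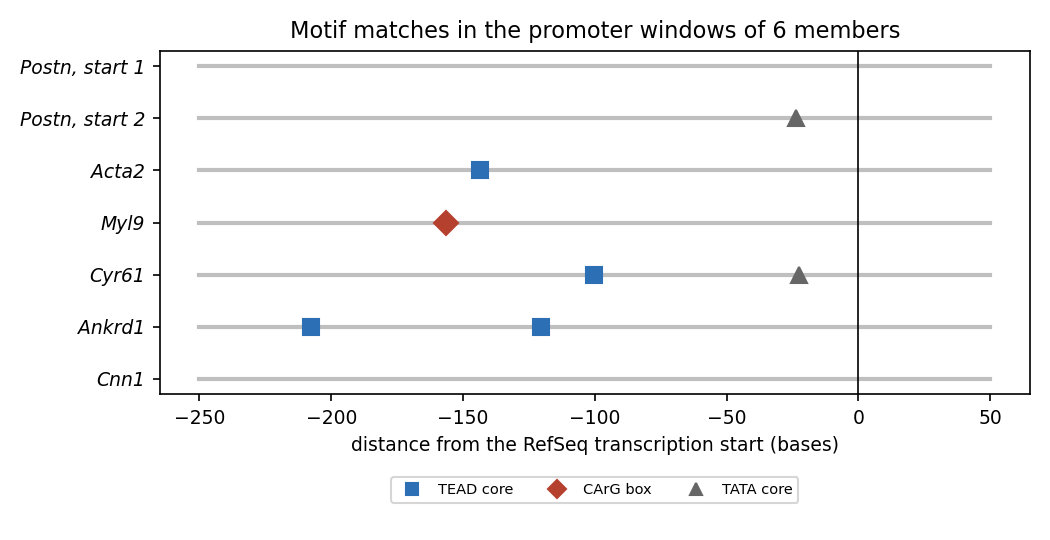
Motif matches in the promoter windows of 6 members, with distance from the RefSeq transcription start in bases on the horizontal axis and 1 line per window. Squares are TEAD cores (Acta2, Cyr61 and 2 in Ankrd1), the diamond is the CArG box of Myl9, triangles are TATA words, and the lines of Cnn1 and of the first start of Postn carry none.

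Levels are compared between genes per length, as log2 CPM per kilobase of the longest coding transcript of each gene in GENCODE M21, since a longer transcript yields more reads. Over the 13944 genes of the table with a known length, the median was 2.28 on this scale, and the 10th and 90th percentiles were -1.23 and 5.22. The members ran from -0.44 to 8.22, with a median of 4.16, and 8 of the 10 lay above the median of all genes, all but Cdh11 and Cnn1. Ankrd1 fell below that median with the median coding transcript as length, where 7 of 10 lay above it, and when genes under a mean of 1 or 3 log2 CPM were left out, where 7 of the remaining 9 did. Without division by length 8 lay above it, with Cdh11 in place of Ankrd1. Their order from the highest was Postn, Acta2, Myl9, Tagln, Cyr61, Fap, Ctgf, Ankrd1, Cdh11 and Cnn1. The first 4 lay above the 90th percentile, Myl9 at 90.8 and Tagln at 90.2 only just. Postn and Acta2 stayed above it under every setting tried, whereas Tagln did not under 3 of them (88.44, 85.27 and 83.56 with a limit of 1 log2 CPM, a limit of 3 and no division by length) nor Myl9 under the same 3 (89.16, 86.18 and 77.76) and with the median coding transcript (85.21). Between Postn and Cnn1 the span was 8.66 on the log2 scale, or 406-fold. It was 183-fold with the median coding transcript and 249-fold with the longest transcript of any kind. Cnn1, at a mean of 0.81 log2 CPM, lies near the authors' limit for listing, over 1 CPM in at least 3 samples. Without a spread between mice, it was not tested which neighbours in this order differ. The closest were Fap and Ctgf, 0.05 apart on the log2 scale, and Myl9 and Tagln, 0.10 apart.

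**Figure D2:**
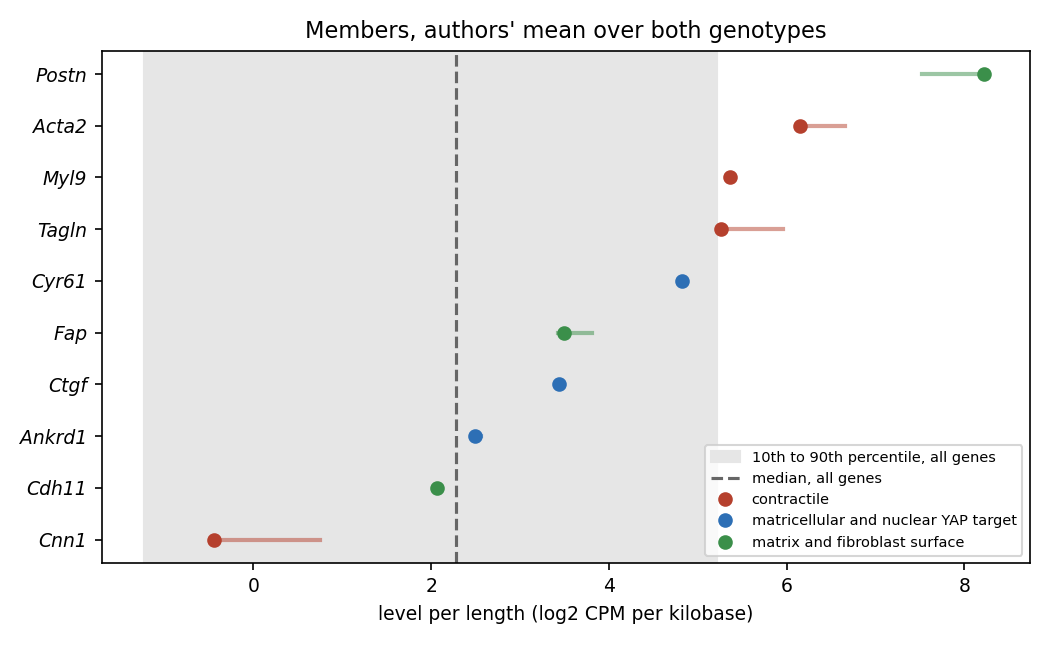
Level of each member in log2 CPM per kilobase, from the authors' mean over both genotypes. Points use the longest coding transcript and bars span the other choices of transcript length (they are not errors). Postn, Acta2, Myl9 and Tagln sit to the right of the grey band that holds the 10th to 90th percentile of all genes, and Cnn1 at -0.44 lies farthest left.

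Among the contractile members, Acta2, Myl9 and Tagln were abundant and Cnn1 was not. Acta2 (chromosome 19 of GRCm38, 34241090 to 34255590), which encodes smooth muscle actin, the defining filament of the myofibroblast, had an authors' mean of 7.18 log2 CPM and a level per length of 6.15, higher than 94.7% of genes. Myl9 (chromosome 2, 156775420 to 156781658), the regulatory light chain of the myosin that works on that actin, stood at 5.53 log2 CPM and, per length, at 5.36. Its transcript is short, so that it stood below Tagln and Cyr61 by log2 CPM and above both per length. Tagln (chromosome 9, 45929619 to 45936058), which encodes the actin-binding protein SM22, stood at 5.94 log2 CPM and 5.26 per length. Cnn1 (chromosome 9, 22099216 to 22109630), the calponin of differentiated smooth muscle, stood at 0.81 log2 CPM and -0.44 per length, with only 15.5% of genes below it. That is near the authors' limit of 1 CPM, so folds against Cnn1 rest on a low level. Per length, Acta2 exceeded Cnn1 by 6.59 on the log2 scale (96.4-fold), Myl9 by 5.80 and Tagln by 5.70. With the median coding transcript these were 5.91 (60.3-fold), 4.61 and 5.22.

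Other contractile genes of smooth muscle were set beside these members. Of 17 such genes and their regulators, 16 were listed, with a median level per length of 4.56. Highest were Tpm1 at 11.81, Tpm2 at 11.51 and Des at 10.14, tropomyosins and desmin, which skeletal muscle fibres also make in quantity. Lowest were Myh11 at 1.36, the myosin heavy chain that marks mature smooth muscle, and Lmod1 at 1.45, a leiomodin of the same cells. Cnn1 lay 1.80 below Myh11 on the log2 scale (0.64 below it with the median coding transcript), whereas Acta2 lay 4.79 and Tagln 3.90 above it, and Myl9 between those. Srf itself stood at 4.71 and its cofactors Mkl1 and Mkl2, the myocardin-related factors, at 2.65 and 2.13. Myocd, which encodes myocardin, was not listed, and listing required over 1 CPM in at least 3 samples in the authors' filter.
Markers of mural cells, another source of Acta2, Tagln, Myl9 and Cnn1, were present. All 8 were listed, with a median of 2.05 per length against 2.28 for all genes, from Kcnj8 at -1.57 to Rgs5 at 5.84. Abcc9 at 4.44 and Mcam at 4.07 were the next highest, and the lowest after Kcnj8 was Cspg4 at -0.06. The part of mural cells in the levels of the contractile members was not tested.

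Each contractile member was then set beside its relatives. Of the 6 actins, Acta2 ranked 5 per length. The skeletal muscle actin Acta1 stood at 13.77, higher than Acta2 by 7.62 on the log2 scale (197-fold), and the cardiac actin Actc1 at 9.77, higher by 3.61. The cytoplasmic actins Actb and Actg1 stood at 8.44 and 8.09. Actg2, the actin of visceral smooth muscle, was the only one below Acta2, at 1.18. The transcripts could be told apart in sequence: of the 2005 distinct 31-base words in the longest coding transcript of Acta2, 1.5% also occur in transcripts of other genes, among them Actg1 and Actb.
Of the calponins, Cnn3 at 5.91 and Cnn2 at 4.14, which many cell types express, lay far above Cnn1, by 6.35 and 4.58 on the log2 scale (the latter 3.93 with the median coding transcript). Tagln at 5.26 was all but level with its relative Tagln2 at 5.36, while Tagln3, a neuronal gene, stood at -1.02. Myl9 lay between Myl12a at 6.64 and Myl12b at 3.82, its near copies in non-muscle cells, and 7.97 below the fast fibre light chain Mylpf at 13.32. The value of Tagln carries a doubt: 53.8% of its 31-base words occur in transcripts of other genes, 48.8% in the antisense gene Gm48529 and 4.98% in Pcsk7, both of which overlap it on the opposite strand. Gm48529 was not listed and Pcsk7 was. Whether the counting used strand is not given in the sources used here.

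**Figure D3:**
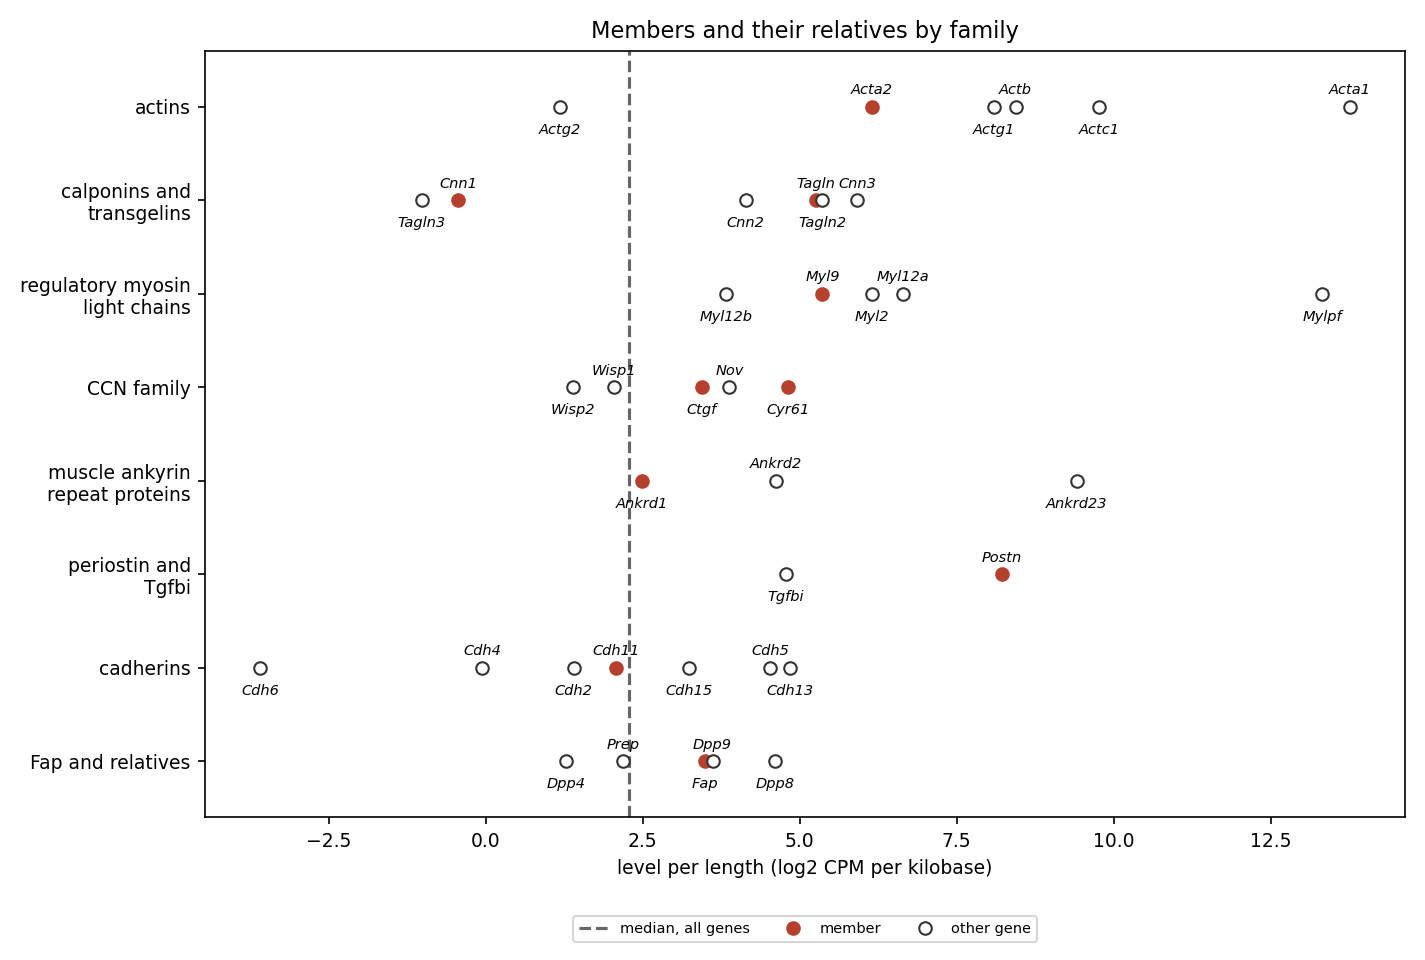
Members (filled) and their relatives (open) by family, in log2 CPM per kilobase from the authors' mean over both genotypes, with the median of all genes as a dashed line. Acta2 and Myl9 lie far left of the skeletal muscle genes Acta1 and Mylpf, Cnn1 far left of Cnn2 and Cnn3, Ankrd1 left of Ankrd2 and Ankrd23, and Cyr61 at the right end of the CCN family.

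The YAP target members spanned a narrower range, from 2.49 to 4.82 per length. Cyr61 (chromosome 3, 145646976 to 145649981) encodes CCN1, a secreted matrix protein that binds integrins. Its authors' mean was 5.84 log2 CPM and its level per length 4.82, higher than 86.8% of genes. Ctgf (chromosome 10, 24595442 to 24598683), which encodes the related CCN2, a promoter of matrix production, stood at 4.76 log2 CPM and 3.44 per length. Cyr61 exceeded it by 1.38 on the log2 scale (2.61-fold). Ankrd1 (chromosome 19, 36111961 to 36120099), an ankyrin repeat protein of nucleus and sarcomere, stood at 3.50 log2 CPM and 2.49 per length, higher than 53.7% of genes.
In the CCN family, of which 5 of 6 genes were listed, Cyr61 was the highest and Ctgf stood in the middle. Nov (CCN3) lay between those at 3.88, Wisp1 (CCN4) at 2.04 and Wisp2 (CCN5) at 1.38, and Wisp3 was not listed. Ankrd1 was the lowest of the muscle ankyrin repeat genes, which sit in the sarcomere and respond to stretch. Ankrd2 stood 2.13 above it on the log2 scale and Ankrd23, at 9.41 per length, 6.93 above it (122-fold). For Ctgf, 11.1% of the 31-base words occur in other genes, 10.9% in the opposite-strand gene Gm15270, which was not listed. Cyr61 and Ankrd1 share none.

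Other genes known to be raised by YAP spread to both sides of the 3 members. Of 18 from a conserved target list, 17 were listed, with a median of 2.14 per length, and 8 were above the median of all genes. The highest were Gadd45a at 6.70, a stress gene of growth arrest, Ccdc80 at 5.29, a matrix protein of fibroblasts, and Axl at 4.52, a receptor tyrosine kinase. The lowest were Dock5 at -0.71 and Nt5e at -0.49. Cyr61 would rank among these genes just after Gadd45a and Ccdc80, and Ankrd1 would stand between Tgfb2 at 2.65 and Crim1 at 2.34. Foxf2 was not listed.
The machinery that acts on these targets was listed in full, 18 of 18 genes, with a median of 2.41. Highest were the Hippo adaptor Sav1 at 4.67, Yap1 itself at 4.39 and the Hippo activator Nf2 at 4.16. Lowest were Wwc1 at -2.92 and Vgll3 at 0.94. Wwtr1, which encodes TAZ, stood at 3.89, lower than Yap1 by 0.50 on the log2 scale. Of the TEAD genes Tead1 was the highest at 3.48, followed by Tead3 at 2.48, Tead4 at 2.34 and Tead2 at 1.48. These are levels of transcript, and the activity of YAP, which turns on its place in the cell, was not measured.

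Of the matrix and fibroblast surface members, Postn was by far the highest. Postn (chromosome 3, 54361109 to 54391037) encodes periostin, a matrix protein secreted by activated fibroblasts. Its authors' mean was 9.90 log2 CPM and its level per length 8.22, higher than 98.8% of genes. It exceeded Acta2, the next member, by 2.07 on the log2 scale (4.21-fold, or 2.58-fold with the longest transcript of any kind) and its relative Tgfbi, at 4.78, by 3.44. Fap (chromosome 2, 62500943 to 62574075), a cell surface protease of activated fibroblasts, stood at 4.95 log2 CPM and 3.49 per length. Cdh11 (chromosome 8, 102632095 to 102785642), the cadherin that joins fibroblasts to each other, stood at 4.57 log2 CPM and 2.07 per length, higher than 46.3% of genes. Its long transcript set it below Ankrd1 per length, though it was above Ankrd1 by log2 CPM.
Fap lay between the related proteases, near Dpp9 at 3.61 (above it by 0.50 or 0.20 under the other choices of length), below Dpp8 at 4.60 and above Prep at 2.19 and Dpp4 at 1.27. Of the 7 cadherins set beside each other, Cdh11 ranked 4. Cdh13 at 4.84 and the endothelial cadherin Cdh5 at 4.53 were the highest, the satellite cell cadherin Cdh15 stood at 3.24, and Cdh2 at 1.40, Cdh4 at -0.06 and Cdh6 at -3.60 were lower, though with the median coding transcript Cdh4 lay 0.27 above Cdh11. Of the 31-base words of Cdh11, 7.46% occur in other genes, among them Gm3365 (4.4%), which was not listed, and 2610005L07Rik (4.06%), which was. Cdh11 also overlaps 4 annotated genes on its own strand, none of them listed. Postn and Fap share no such words.

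All 20 of 20 other genes of activated fibroblasts were listed and lay above the median of all genes, with a median of 4.66 per length. Sparc at 9.75, Col3a1 at 9.27 and Col1a1 at 9.10, matrix genes of repair, were the highest, and Lrrc15 at 2.56 was the lowest. Postn lay 0.87 below Col1a1 on the log2 scale and 1.53 below Sparc. With the longest transcript of any kind these were 1.58 and 2.23. Fap was higher than Pdgfra, the receptor that marks fibro-adipogenic cells, by 0.54, and Cdh11 lower than it by 0.88. With the median coding transcript Fap lay 0.39 and Cdh11 2.13 below Pdgfra. Markers of tendon cells, which also express Postn and Cdh11, were all listed, at a median of 4.66, with Thbs4 at 6.98, Fmod at 5.31 and Tnmd at 4.66 the highest and Mkx at -0.08 and Scx at 3.84 the lowest. The part of tendon in the levels of these members was not tested.
The labelled tissue was checked against muscle fibre markers, all 8 of which were listed at a median of 10.77, led by Acta1 at 13.77, Tnnt3 at 13.51 and Myh4 at 12.06. Markers of keratinocytes, which would come with skin, were not listed for 3 of 4 genes, and Krt10 stood at 0.93.

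**Figure D4:**
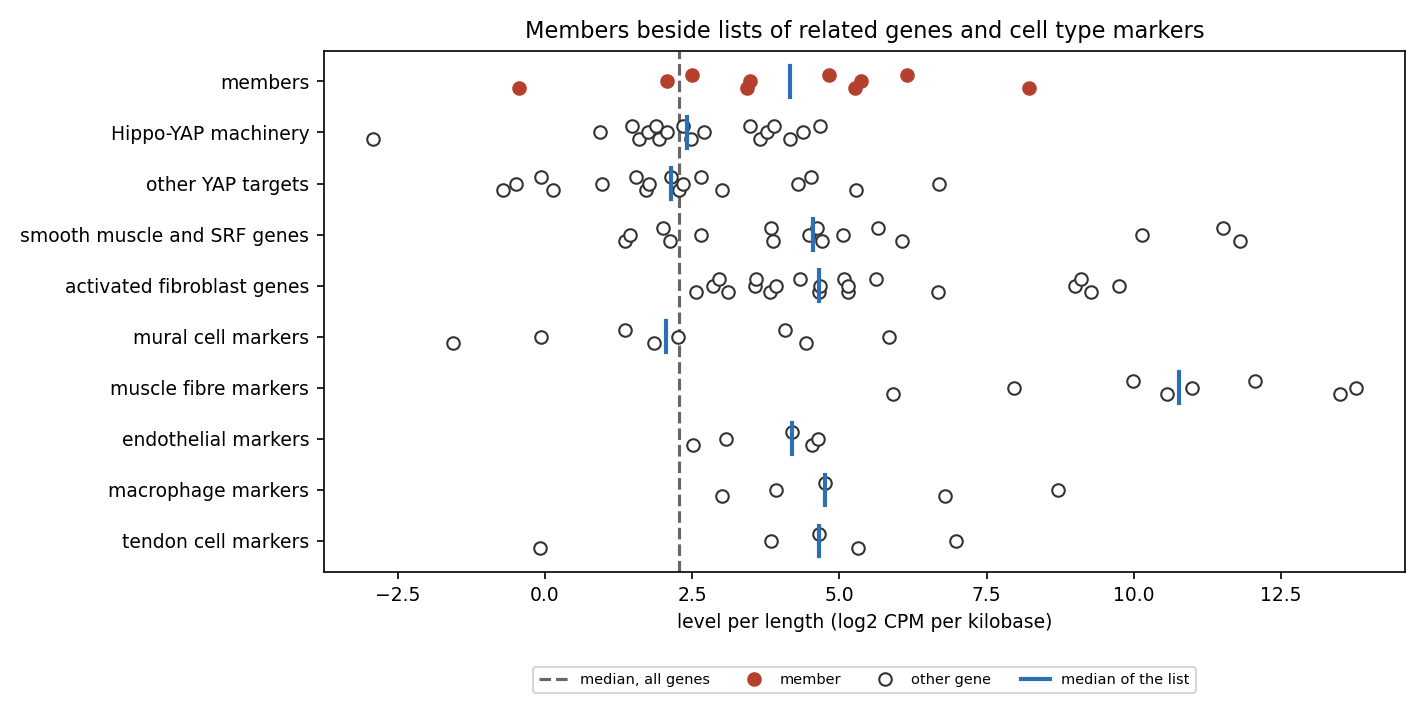
Members beside related genes and cell type markers, in log2 CPM per kilobase from the authors' mean over both genotypes. Each point is a gene, short vertical bars are list medians and the dashed line is the median of all genes. The medians of members (4.16), smooth muscle and SRF genes (4.56) and activated fibroblast genes (4.66) lie close together. Those of endothelial (4.20), tendon cell (4.66) and macrophage markers (4.75) lie in the same range. The medians of Hippo-YAP machinery (2.41), other YAP targets (2.14) and mural cell markers (2.05) lie near the median of all genes, and that of muscle fibre markers (10.77) far to the right.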

How the data were processed

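Poly(A) RNA of injured muscle from 3 WT and 3 GATA-1 mutant mice was sequenced. Per the study's methods, read pairs were quantified by kallisto and gathered by gene, a gene had to exceed 1 CPM in 3 or more samples, and library sizes were scaled by TMM. The deposited table gives 1 mean log2 CPM per gene over these samples, which is the only column used. Its other columns hold the authors' comparison of the genotypes by limma (a fold change, test statistics and p-values) and were not used, so the comparison of genotypes that had been planned is not given here. The submitters' processing notes name GRCm39 (mm39), and the transcript index is not given in the sources used here. Per-sample depth is unknown.

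Of 14016 rows, 1 without a symbol was left out, 13458 had a symbol of GENCODE M21 (GRCm38), and 486 more were found in it by way of older symbols in RefSeq. Positions are those of GRCm38 and differ in GRCm39. Level per length is the mean log2 CPM less log2 of the longest coding transcript in kilobases (longest of any kind where none is coding). Words of 31 bases were compared on either strand, motifs searched on both strands. Scripts used Python 3.11.15, pandas 2.3.3, numpy 2.4.6 and matplotlib 3.10.9 and were tested on simulated data. Members and lists were chosen with earlier results of these data known. All members and their relatives are named, and of other lists the 3 highest and 2 lowest genes, the TEAD genes, Wwtr1, Pdgfra and the SRF cofactors. The last 4 kinds, and the genes between which Ankrd1 falls, were named after their values were seen. One of the lowest genes of a list is not reported here. Alternatives were other transcript lengths, minimum levels, protein-coding genes only and log2 CPM without length.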

Additional observations from a re-analysis of the deposited data

How the results depend on the processing

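No paired analysis was possible because the values used are means over all mice. For the same reason the planned limma test of genotypes, the leaving out of each mouse and other pseudocounts were not run. A level or median counts here as moved when it changed by over 1.5-fold, and a percentile when it changed by over 10 points. By this, 17 of 20 levels, 51 of 58 percentiles and 84 of 99 list medians did not move, and 44 of the 45 pairs of members kept their order under either other choice of length (Tagln passed Myl9 with the median coding transcript, and Ctgf passed Fap with the longest of any kind). With the median coding transcript as length, Tagln stood at 5.96 and Cnn1 at 0.75, and list medians were 3.46 for Hippo-YAP machinery, 2.79 for other YAP targets, 2.73 for mural markers, 11.51 for fibre markers, 1.59 for keratinocyte markers, 9.26 for actins, 5.32 for calponins and transgelins and 7.06 for regulatory light chains. With the longest transcript of any kind, Postn stood at 7.52. Without division by length, the percentile was 77.76 for Myl9, 40.61 for Ankrd1 and 60.43 for Cdh11. When genes averaging under 1 log2 CPM were left out, Cnn1 among them, the medians were 4.82 for the members and 5.31 for calponins and transgelins. With the limit at 3, they were 4.82 and 5.31 again, 4.07 for mural markers, 3.24 for cadherins and 3.23 for all genes, and the percentiles were 55.16 for Ctgf, 31.45 for Ankrd1, 21.49 for Cdh11 and 56.26 for Fap. These shifts follow from the lower genes left out. The unknown depth and the pooling of genotypes limit every level.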

Other observations

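The cells around the fibroblasts were also represented. All 5 endothelial markers were listed, at a median of 4.20 log2 CPM per kilobase, from Tek, a receptor for angiopoietins, at 2.51 to Pecam1 at 4.63 and Cdh5 at 4.53. All 5 macrophage markers were listed, at a median of 4.75, led by Lyz2, a lysozyme, at 8.72 and C1qa, a complement component, at 6.80. Lowest among them were Adgre1, which encodes F4/80 and is listed as Emr1, at 3.01 and Csf1r at 3.92. These are the authors' means over both genotypes, and no difference between genotypes was computed.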
